A study of Mus musculus with 12 samples.

Results

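The genes described here are 10 genes of sphingosine 1-phosphate (S1P) and lysophosphatidic acid (LPA) signalling, taken by name from 32419 genes listed in the deposited tables: the S1P receptors S1pr1, S1pr2 and S1pr3, the sphingosine kinases Sphk1 and Sphk2, the S1P lyase Sgpl1, the S1P exporter Spns2, and the LPA receptors Lpar1, Lpar4 and Lpar6. RNA was sequenced from primary brain endothelial cells (BECs) of 8-week-old C57BL/6 mice that carried the cortistatin gene (Cort+/+) or lacked it (Cort-/-). Cells of 3 mice were pooled for each replicate, selected with puromycin for 60 h and plated 1 week after isolation. Cultures were then kept for 24 h in normoxia and normoglycemia (NX/NG, 21% O2 and 5.5 mM glucose) or exposed to 4 h at 1% O2 without glucose and serum and then to reoxygenation for 20 h (OGD-R). In each environment 3 Cort+/+ and 2 Cort-/- libraries had a column, and replicate 3 (NX/NG) and replicate 2 (OGD-R) of Cort-/- were not used here. The labels name the environments NM and OGD and describe the mice as a stroke model, while the methods of the study describe the insult as applied in culture. Cort-/- mice lack the gene in every cell, and the isolated cultures hold no intact vessel wall.

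S1P and LPA are lysophospholipids that act outside the cell on G protein-coupled receptors. Sphingosine kinases make S1P from sphingosine, Spns2 carries it out of the endothelial cell, and Sgpl1 degrades it irreversibly inside the cell. In endothelium, S1pr1 couples to Gi and Rac and favours junction assembly, while S1pr2 couples to G12/13 and opposes it. Lpar4 and Lpar6 are the LPA receptors best known from endothelial cells, and Lpar1 is widespread in mural and connective tissue cells. The comparisons asked how these transcripts differed between the genotypes in each environment and between the environments in each genotype.

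Levels are given in RPKM, reads per kilobase of gene scaled to library size, which allows genes to be set beside each other. The values recover whole reads, between 12386048 and 12390428 on genes per library. For Cort itself, 2 reads, 1 read and 1 read were found in Cort+/+ BECs under NX/NG and 1 read in replicate 3 of Cort+/+ after OGD-R. No read fell on it in the other 6 libraries, so at this depth it does not check the genotype labels. The ribosomal transcript Rn18s-rs5 accounted for 7.64% to 15.8% of reads in 8 libraries. It was scarce in the remaining 2, both of them OGD-R, namely Cort+/+ replicate 1 at 0.0775% and Cort-/- replicate 3 at 0.0951%. Endothelial markers were high in every library, with Cdh5 between 443 and 740 RPKM and Cldn5 between 105 and 136 RPKM. The 8 of them summed to between 835 and 1284 RPKM. The 4 smooth muscle markers summed to between 995 and 1777 RPKM, above the endothelial sum in every library but Cort-/- OGD-R replicate 1. Most of this was Acta2 and Tagln, while Myh11 lay between 0.506 and 2.11 RPKM. The 6 fibroblast markers summed to between 83.6 and 342 RPKM and the 6 pericyte markers to between 7.59 and 22.9 RPKM. Markers of astrocytes, neurons and oligodendrocytes summed to at most 0.154, 0.956 and 0.368 RPKM. Of 5 macrophage markers, Ptprc, Itgam and Cx3cr1 reached at most 0.0320, 0.0162 and 0.0970 RPKM, while Csf1r lay between 1.14 and 1.97 RPKM and Cd68 was found in every library, at up to 2.22 RPKM. The list summed to between 2.31 and 4.23 RPKM. Epithelial markers summed to between 1.64 and 50.3 RPKM. The highest sums were those of Cort+/+ NX/NG replicate 2 (50.3 RPKM) and Cort-/- OGD-R replicate 1 (37.2 RPKM), and the other libraries reached at most 14.1 RPKM.

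Under NX/NG, S1pr2 and S1pr3 were lower and S1pr1 and Lpar4 were higher in Cort-/- than in Cort+/+ BECs, with no overlap between libraries, although none of these differences passed the adjustment over all genes. Promoters are shown for receptors from both sides of this comparison. RefSeq gives a promoter window for 9 of the 10 genes on GRCm38.p6, S1pr1 being the one without an entry. The 250 bases upstream of the annotated start are printed below for S1pr2 (chr9:20976794-20977043, minus strand), S1pr3 (chr13:51408368-51408617, plus strand) and Lpar4 (chrX:106920375-106920624, plus strand), each from 5′ to 3′ on the strand of the gene. Capitals mark CACCC or its reverse complement GGGTG, the core bound by Krüppel-like factors.
S1pr2: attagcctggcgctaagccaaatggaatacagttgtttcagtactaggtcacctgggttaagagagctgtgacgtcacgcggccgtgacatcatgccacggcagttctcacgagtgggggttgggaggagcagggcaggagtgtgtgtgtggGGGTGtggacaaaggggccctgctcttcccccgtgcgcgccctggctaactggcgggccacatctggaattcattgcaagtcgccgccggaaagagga
S1pr3: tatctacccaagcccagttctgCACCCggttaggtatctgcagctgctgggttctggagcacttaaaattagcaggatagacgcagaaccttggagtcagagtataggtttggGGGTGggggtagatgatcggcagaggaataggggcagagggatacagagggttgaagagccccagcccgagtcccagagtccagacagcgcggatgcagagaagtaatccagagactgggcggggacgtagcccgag
Lpar4: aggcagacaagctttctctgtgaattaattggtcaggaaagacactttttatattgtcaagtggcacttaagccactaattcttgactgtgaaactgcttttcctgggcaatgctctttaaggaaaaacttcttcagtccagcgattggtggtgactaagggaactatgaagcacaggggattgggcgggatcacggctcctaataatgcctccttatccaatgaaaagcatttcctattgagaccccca
The S1pr2 window holds 1 match, which begins 98 bases upstream of the start, and the S1pr3 window holds 2, which begin 228 and 137 bases upstream. The Lpar4 window holds none. Some genes have several windows, 5 for Sphk1, 3 for Lpar1 and 2 for Sphk2. The first window is that of the most upstream start. On both strands, this 5-letter core occurred in the first window of 5 of the 9 genes and in 52.0% of 32851 promoter windows of the same length. The 5 were S1pr2, S1pr3, Sphk2, Lpar1 and Lpar6. Of these, Lpar6 was higher in Cort-/- under NX/NG. Sphk1, which was lower, had no match in its first window, while its windows 2, 3, 4 and 5 held 4, 3, 3 and 3 matches. The hypoxia response core ACGTG (reverse CACGT), which does not overlap CACCC, was present in the first window of 1 member, Sgpl1, and in 16.6% of all windows. Beyond the first windows, this hypoxia core was also found in windows 4 and 5 of Sphk1 and in window 2 of Sphk2. The TEAD core CATTCC (reverse GGAATG) was present in the first windows of Sphk1 and Lpar6 and in 12.6% of all windows. These are letter matches in a window and no binding was measured.

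On GRCm38 with GENCODE vM21, S1pr1 lies on chromosome 3 from 115710433 to 115715072 and S1pr2 on chromosome 9 from 20962361 to 20976781, both on the minus strand and with no other gene over them. The build of the authors' alignment is not given in the sources used here, but the gene lengths in the tables equal the GENCODE exon lengths for 9 of the 10 genes and differ by 1 base for Sphk1. Sphk2, on chromosome 7, shares 21.9% of its exon bases with Dbp and Rpl18 on the opposite strand. Lpar6, on chromosome 14, is annotated as a single exon block inside Rb1, and 7.56% of its bases are shared with Rb1 exons on the opposite strand. Whether reads were counted by strand is not given in the sources used here, so the levels of Sphk2 and Lpar6 could hold reads of these neighbours. Lpar1 lies on chromosome 4, as Cort does, at a distance of 90.6 Mb.

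S1pr1 was by far the most abundant of the 10 genes in every library, between 69.8 and 95.6 RPKM. In Cort+/+ BECs under NX/NG it averaged 75.2 ± 3.66 RPKM (SD, n = 3), a level above that of 98.4% of listed genes. Spns2 followed at 22.3 ± 3.88 RPKM, Sgpl1 at 19.1 ± 2.06 RPKM and Lpar6 at 11.7 ± 0.645 RPKM. Spns2 and Sgpl1 overlapped between libraries, so their order is not resolved.

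The middle of the range was held by Lpar4 at 7.78 ± 0.136 RPKM, Sphk2 at 7.32 ± 0.470 RPKM and S1pr2 at 4.16 ± 0.401 RPKM, of which the first pair overlapped. The lowest levels were those of S1pr3 at 0.760 ± 0.254 RPKM, Sphk1 at 0.708 ± 0.188 RPKM and Lpar1 at 0.520 ± 0.0627 RPKM. S1pr3 overlapped Sphk1, and Sphk1 overlapped Lpar1. In read counts these 3 rested on between 15 and 95 reads (S1pr3), 17 and 62 reads (Sphk1) and 17 and 39 reads (Lpar1) per library, against 2637 to 3702 reads for S1pr1, so their values carry more counting error. In Cort-/- BECs under NX/NG the first 7 genes kept this order. The last 3 there were Lpar1 at 0.390 ± 0.0974 RPKM, Sphk1 at 0.318 ± 0.0537 RPKM and S1pr3 at 0.312 ± 0.0569 RPKM (SD, n = 2), and since Sphk1 overlapped both of the others their order is not resolved.

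**Figure D1:**
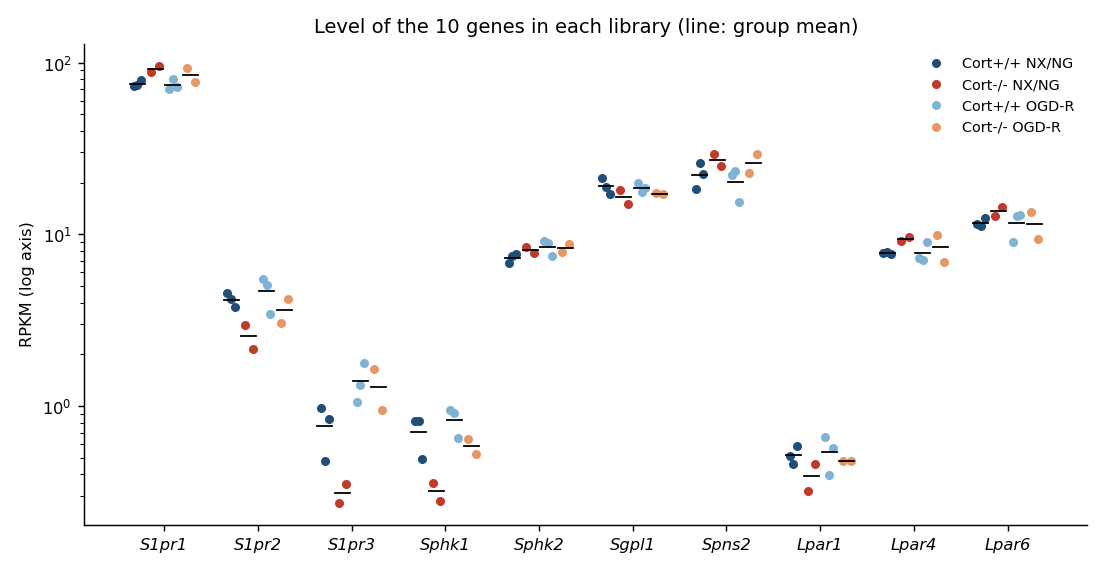
RPKM on a log axis of the 10 genes in each library, coloured by genotype and environment, with black lines at the group means. The 10 libraries span 69.8 to 95.6 RPKM for S1pr1 and 0.272 to 1.78 RPKM for S1pr3. The tables of the 2 environments were scaled separately, so levels across environments are set side by side only.

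Within the receptor families, S1pr1 made up between 90.9% and 96.8% of the summed RPKM of S1pr1 to S1pr5. S1pr2 took between 2.17% and 7.10%, and S1pr3 between 0.296% and 2.27%. S1pr4, a receptor of lymphoid cells, lay between 0.307 and 0.893 RPKM, and S1pr5, known from oligodendrocytes and natural killer cells, had at most 4 reads in a library. Among LPA receptors, Lpar6 held between 49.5% and 60.2% of the sum and Lpar4 between 33.3% and 40.5%. Lpar2 ranged from 0.580 to 1.33 RPKM, Lpar3 had at most 1 read in any of the 5 NX/NG libraries, and Lpar5 was listed in neither table. Sphk2 accounted for 89.2% to 96.5% of the summed kinase level. The shares of Sphk2 and Lpar6 include any reads of the overlapping genes Dbp, Rpl18 and Rb1 that were counted on them.

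Under NX/NG, S1pr1, the receptor that stabilises endothelial junctions, was at 88.0 and 95.6 RPKM in Cort-/- replicates 1 and 2. In Cort+/+ replicates 1 to 3 it was at 72.6, 73.6 and 79.4 RPKM. Both Cort-/- libraries lay above all 3 Cort+/+ libraries, with a log2 fold change of 0.29 (SE 0.07) and a limma p of 0.0085 that became 0.378 after adjustment over all genes. The difference is 1.22-fold, and without Cort-/- replicate 2 it was 0.23 on the log2 scale with an unadjusted p of 0.056.

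S1pr2, which couples to G12/13, had 2.95 and 2.14 RPKM in the Cort-/- libraries. The Cort+/+ libraries held 4.55, 4.17 and 3.75 RPKM. The groups did not overlap, and the log2 fold change was -0.70 (SE 0.17, unadjusted p = 0.0086, adjusted p = 0.380). S1pr2 kept an unadjusted p under 0.05 in each of 11 alternatives, with log2 fold changes between -0.92 and -0.48. S1pr3, which couples to Gi, Gq and G12/13, was at 0.272 and 0.353 RPKM in Cort-/- and at 0.969, 0.477 and 0.835 RPKM in Cort+/+ BECs. Its log2 fold change was -1.02 (SE 0.37, unadjusted p = 0.0385, adjusted p = 0.560), and 4 of 10 alternatives kept an unadjusted p under 0.05. The share of S1pr1 in the summed S1P receptors was 95.8% to 96.8% in Cort-/- and 92.5% to 94.0% in Cort+/+ libraries under NX/NG.

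Sphk1, the inducible sphingosine kinase, was at 0.356 and 0.280 RPKM in Cort-/- against 0.820, 0.813 and 0.490 RPKM in Cort+/+ BECs. The groups were apart, with a log2 fold change of -0.93 (SE 0.33, unadjusted p = 0.036, adjusted p = 0.553), on 17 to 51 reads per library. For Sphk1, 6 of 10 alternatives kept an unadjusted p under 0.05. Sphk2, the kinase with the higher RPKM, was at 8.47 and 7.76 RPKM in Cort-/- and at 6.79, 7.50 and 7.67 RPKM in Cort+/+ BECs, a log2 fold change of 0.15 (SE 0.08) with an unadjusted p of 0.136. The lyase Sgpl1 was at 18.1 and 15.0 RPKM against 21.2, 18.9 and 17.1 RPKM (log2 fold change -0.21, SE 0.13), and its groups overlapped. The exporter Spns2 was at 29.3 and 25.0 RPKM against 18.4, 26.1 and 22.3 RPKM (log2 fold change 0.29, SE 0.16), again with overlap. Of these 4 genes of S1P production, breakdown and export, Sphk1 was the one with an unadjusted p under 0.05.

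For LPA, Lpar4 was at 9.15 and 9.65 RPKM in Cort-/- and at 7.79, 7.90 and 7.63 RPKM in Cort+/+ BECs. It had the lowest p of the 10 genes, with a log2 fold change of 0.27 (SE 0.06, unadjusted p = 0.0049, adjusted p = 0.317). Lpar6 was at 12.9 and 14.5 RPKM against 11.4, 11.2 and 12.4 RPKM, a log2 fold change of 0.22 (SE 0.08, unadjusted p = 0.039, adjusted p = 0.564). Of 11 alternatives, 6 kept an unadjusted p under 0.05 for Lpar6, and with all groups in one limma fit it was 0.259. Lpar1, by contrast, was at 0.321 and 0.459 RPKM against 0.513, 0.461 and 0.586 RPKM, with a log2 fold change of -0.35 (SE 0.29) and an unadjusted p of 0.274.

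At an FDR of at most 0.05, limma called 0 of the 10 genes under NX/NG, and 0% of 29965 genes. At an unadjusted p under 0.05 it gave 6 of 10, 3 higher and 3 lower in Cort-/-, against 8.39% of all genes, 3.56% higher and 4.82% lower. The libraries of the genotypes did not overlap for 8 of the 10 genes, all but Spns2 and Sgpl1, against 23.2% of all genes tested and 32.9% of genes averaging 1 RPKM or more. The 10 genes were chosen with earlier results of these data known, so these counts are a description and no test of the pathway. Limma-voom on the recovered reads called 124 genes (0.414%), none of them among the 10, where its lowest adjusted p were 0.0743 for S1pr2 and 0.0786 for S1pr1. The count of 6 was 2 without Cort-/- replicate 2 and 3 without Cort+/+ replicate 1.

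**Figure D2:**
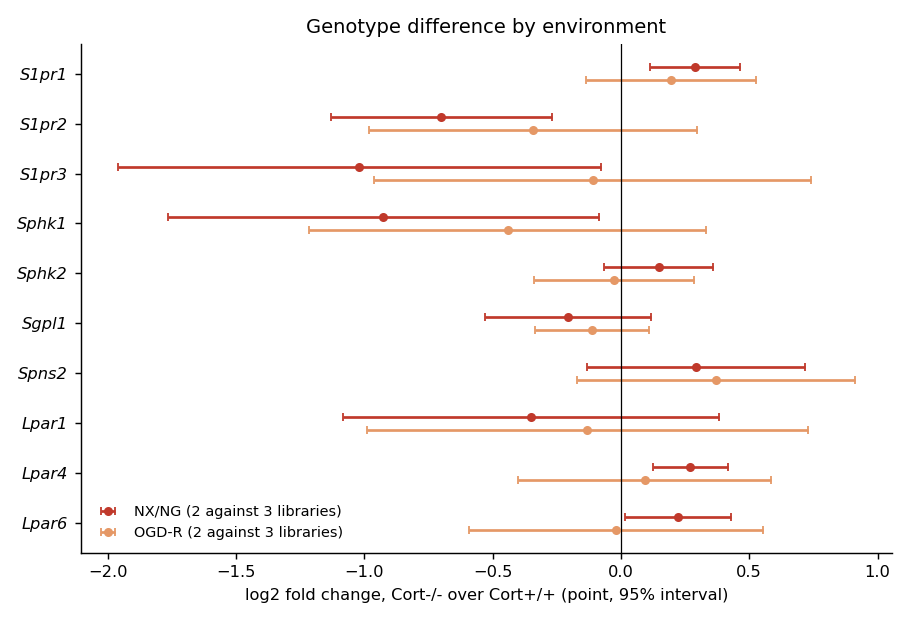
Log2 fold change of Cort-/- over Cort+/+ BECs for the 10 genes under NX/NG (red) and OGD-R (orange), as points with 95% intervals of the limma fit and 2 against 3 libraries in each environment. Under NX/NG the intervals of 6 genes leave out 0, and under OGD-R none does.

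Transcripts of mural and connective tissue cells also differed between the genotypes in the same libraries. The 6 pericyte markers summed to 7.59 and 10.2 RPKM in the Cort-/- libraries and to between 17.9 and 21.4 RPKM in the Cort+/+ libraries under NX/NG, and the 6 fibroblast markers to 83.6 and 121 RPKM against between 193 and 279 RPKM. At an unadjusted p under 0.05, 3 of 6 markers of each list were lower in Cort-/-, among them Cspg4 (log2 fold change -1.91), Rgs5 (-0.86) and Col1a1 (-1.35), and the lowest adjusted p was 0.212. The other pericyte markers Vtn, Kcnj8 and Abcc9 had log2 fold changes of -0.14, -0.07 and 0.02. The other fibroblast markers Pdgfra, Dcn and Lum had values of 0.66, -0.42 and 0.15. The defining pericyte transcripts Kcnj8 and Abcc9 reached at most 0.0353 and 0.0204 RPKM and were at 0 in 5 and 6 of 10 libraries, and the fibroblast transcript Lum reached 0.149 RPKM. The 8 endothelial markers summed to 1085 and 1209 RPKM in Cort-/- and to between 835 and 1093 RPKM in Cort+/+ libraries, with 0 of 8 at an unadjusted p under 0.05. Their log2 fold changes were 0.42 (Tjp1), 0.37 (Pecam1), 0.34 (Slc2a1), 0.34 (Cdh5), 0.24 (Tek), 0.10 (Cldn5), 0.01 (Kdr) and -0.03 (Flt1). Those of S1pr1, Lpar4 and Lpar6 were 0.29, 0.27 and 0.22 in the same libraries. The smooth muscle list, mostly Acta2 and Tagln, summed to between 1299 and 1556 RPKM against between 1449 and 1777 RPKM. The macrophage list, almost all of it Csf1r and Cd68, summed to between 3.68 and 3.80 RPKM in Cort-/- and to between 2.31 and 2.90 RPKM in Cort+/+ libraries, and 1 of its 5 markers, Cd68, was higher at that p (log2 fold change 0.68, unadjusted p = 0.018, adjusted p = 0.470). Under NX/NG, S1pr2, S1pr3 and Sphk1 were lower in the same 2 libraries as the pericyte and fibroblast sums, and the part of any of these cells in the results was not tested. In these bulk cultures fewer cells of a type and less RNA per cell cannot be told apart.

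**Figure D3:**
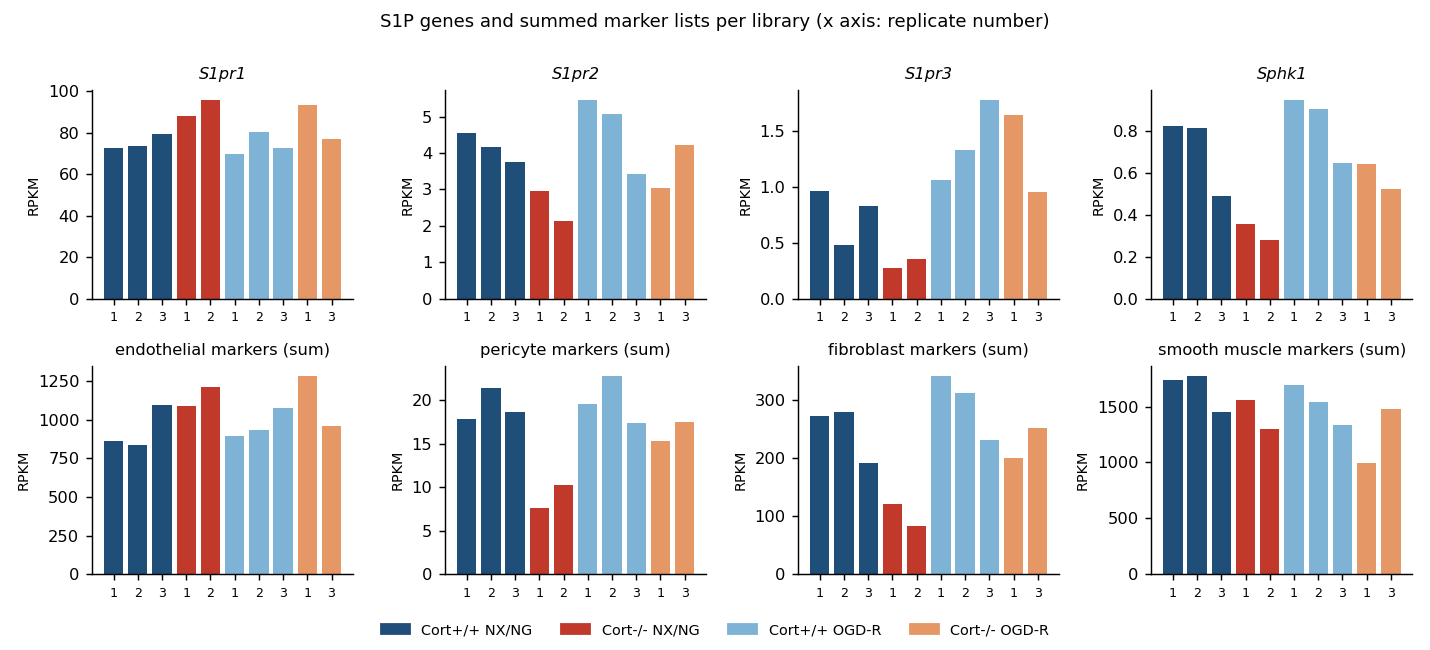
RPKM of S1pr1, S1pr2, S1pr3 and Sphk1 (upper row) and summed RPKM of 4 marker lists (lower row) in each library, with the replicate number on the x axis and colour for the group. The Cort-/- libraries under NX/NG show the lowest bars for S1pr2, S1pr3, Sphk1, pericyte and fibroblast markers. The environments were scaled separately.

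After OGD-R, none of the 10 genes had an unadjusted p under 0.05 for genotype. S1pr1 was at 93.5 and 76.7 RPKM in Cort-/- replicates 1 and 3 and at 69.8, 80.2 and 72.4 RPKM in Cort+/+ replicates 1 to 3. The groups overlapped, with a log2 fold change of 0.19 (SE 0.13, unadjusted p = 0.196). S1pr2 was at 3.03 and 4.22 RPKM against 5.45, 5.07 and 3.43 RPKM (log2 fold change -0.34, SE 0.25), and S1pr3 at 1.64 and 0.952 RPKM against 1.06, 1.33 and 1.78 RPKM (log2 fold change -0.11, SE 0.34). S1pr3 thus showed no separation by genotype in this environment, and its interval ran from -0.96 to 0.74.

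Of the enzymes, Sphk1 was at 0.643 and 0.522 RPKM in Cort-/- and at 0.946, 0.905 and 0.648 RPKM in Cort+/+ BECs, which narrowly do not overlap (log2 fold change -0.44, SE 0.31). Sgpl1, at 17.4 and 17.1 RPKM against 19.9, 17.6 and 18.7 RPKM, was the other gene whose groups were apart (log2 fold change -0.11, SE 0.09). Sphk2 was at 7.89 and 8.72 RPKM against 9.10, 8.88 and 7.46 RPKM. The exporter Spns2 was at 22.7 and 29.3 RPKM against 22.0, 23.2 and 15.5 RPKM, and its log2 fold change of 0.37 (SE 0.22) had the lowest unadjusted p of the 10, 0.141.

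The LPA receptors did not separate the genotypes after OGD-R. Lpar4 was at 9.94 and 6.87 RPKM in Cort-/- and at 7.30, 7.08 and 8.98 RPKM in Cort+/+ BECs. Lpar6 was at 13.5 and 9.40 RPKM against 9.03, 12.8 and 12.9 RPKM. The lowest Lpar6 value of each group, and the lower Lpar4 value in Cort-/-, came from a library low in Rn18s-rs5. Lpar1 was at 0.477 and 0.478 RPKM against 0.662, 0.399 and 0.566 RPKM. Leaving out both libraries low in ribosomal RNA left a single Cort-/- library, so that fit could not decide whether a gene differs.

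Limma called 0 of 10 genes and 0% of 29775 genes for genotype under OGD-R, and limma-voom called 5 genes (0.0168%), none of the 10. At an unadjusted p under 0.05 it gave 0 of 10, against 3.42% of all genes (1.72% higher and 1.71% lower in Cort-/-). Non-overlap held for 2 of 10, against 14.3% of all genes and 16.1% of those averaging 1 RPKM or more. Pericyte markers summed to between 15.3 and 17.6 RPKM in Cort-/- and between 17.4 and 22.9 RPKM in Cort+/+ libraries here, and fibroblast markers to between 200 and 252 RPKM against between 231 and 342 RPKM. The genotypes thus overlapped in both marker sums under OGD-R, with 1 of 6 pericyte and 2 of 6 fibroblast markers lower in Cort-/- at an unadjusted p under 0.05.

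For the comparison of environments, reads of the 10 libraries were scaled together, because the deposited tables were scaled separately. On that scale S1pr3 had 0.992, 0.488 and 0.857 RPKM in Cort+/+ BECs under NX/NG and 1.03, 1.30 and 1.74 RPKM after OGD-R. The groups were apart, with a log2 fold change of 0.75 (SE 0.32, unadjusted p = 0.053, adjusted p = 0.881). In Cort-/- BECs it had 0.280 and 0.363 RPKM under NX/NG and 1.60 and 0.928 RPKM after OGD-R, a log2 fold change of 1.66 (SE 0.39, unadjusted p = 0.0124, adjusted p = 0.920). S1pr3 was thus higher after OGD-R in every library of both genotypes, with the lowest unadjusted p of the 10 genes in each, and neither difference passed the adjustment. The log2 fold change in Cort-/- was 1.29 without OGD-R replicate 1 and 2.02 without OGD-R replicate 3.

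The other receptors differed by less than S1pr3. S1pr1 had a log2 fold change of -0.09 (SE 0.08) in Cort+/+ and -0.19 (SE 0.14) in Cort-/- BECs, and S1pr2 of 0.06 (SE 0.19) and 0.42 (SE 0.26). Lpar4 gave -0.08 (SE 0.10) and -0.26 (SE 0.20), and Lpar6 -0.10 (SE 0.15) and -0.35 (SE 0.21). Lpar1 gave -0.03 (SE 0.27) and 0.19 (SE 0.34). Each of these intervals included 0, so a difference between environments was not detectable for these receptors with these libraries.

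Among the enzymes and the exporter, Sphk1, known for its induction by hypoxia in other cells, had a log2 fold change of 0.16 (SE 0.28) in Cort+/+ and 0.64 (SE 0.33) in Cort-/- BECs. In Cort-/- its libraries were apart, at 0.366 and 0.288 RPKM under NX/NG and 0.626 and 0.508 RPKM after OGD-R on the joint scale, with an unadjusted p of 0.124. Sphk2 gave 0.14 (SE 0.10) and -0.04 (SE 0.11), Spns2 -0.22 (SE 0.19) and -0.14 (SE 0.17), and Sgpl1 -0.09 (SE 0.09) and -0.01 (SE 0.12).

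In Cort+/+ BECs limma called 0 of the 10 genes and 9 of 27075 genes (0.0332%) between environments, limma-voom called 0 of the 10 and 0.00369% of all genes, and 0 of the 10 had an unadjusted p under 0.05 against 5.48% of all genes (3.01% higher and 2.48% lower after OGD-R). In Cort-/- BECs both called 0 of the 10 genes and 0% of 26523 genes, and 1 of the 10, S1pr3, had an unadjusted p under 0.05 against 4.08% of all genes (2.21% higher and 1.87% lower after OGD-R). Libraries of the environments did not overlap for 1 of 10 genes in Cort+/+, against 10.2% of all genes and 12.9% of those averaging 1 RPKM or more, and for 3 of 10 in Cort-/-, against 30.3% and 34.2%. With these 2 against 2 libraries, 3 of 10 is close to the background. The third gene there, beside S1pr3 and Sphk1, was Lpar6. In the same comparison 2 of 6 pericyte markers, Cspg4 and Pdgfrb, were higher after OGD-R at an unadjusted p under 0.05, by log2 fold changes of 1.93 and 0.70, while Vtn, Kcnj8 and Rgs5 had values of -0.59, -0.20 and -0.08. Of 6 fibroblast markers 3 were higher at that p, Col1a1, Col1a2 and Col3a1 by 1.13, 1.31 and 0.73, while Pdgfra and Lum had values of -0.40 and -0.39. Lower at that p were 1 of 4 smooth muscle markers, Myh11 (-1.26), and 1 of 8 endothelial markers, Tek (-0.35). In Cort+/+ BECs, 0 of 6 pericyte markers had that p. There, 1 of 6 fibroblast markers was higher, Lum (0.60), and 2 of 4 smooth muscle markers were lower, Myh11 (-1.05) and Cnn1 (-0.80). The lowest limma adjusted p in Cort-/- were 0.754 in the pericyte and 0.764 in the fibroblast list. The part of any of these cells in the S1pr3 difference was not tested.

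**Figure D4:**
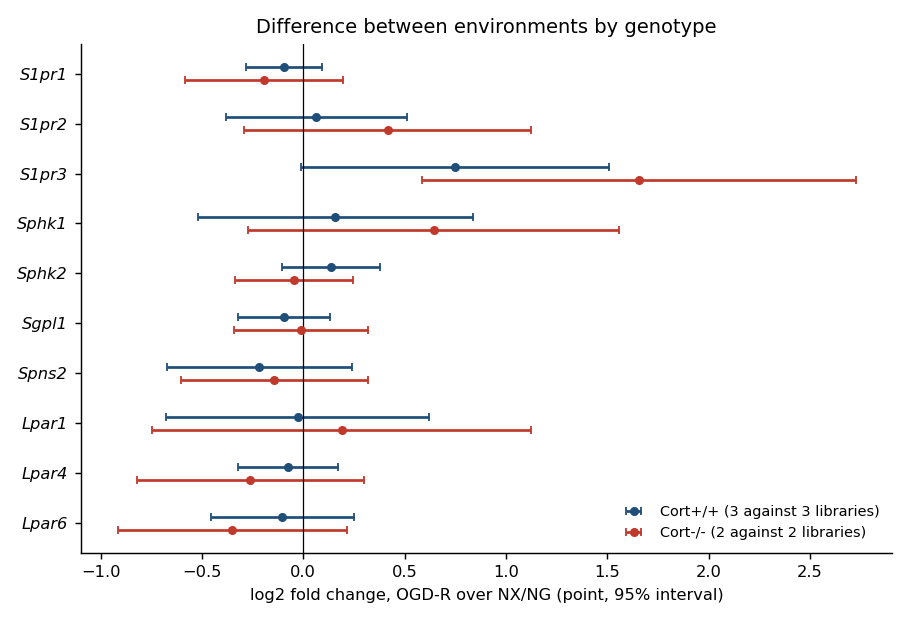
Log2 fold change of OGD-R over NX/NG for the 10 genes in Cort+/+ (blue, 3 against 3 libraries) and Cort-/- BECs (red, 2 against 2), as points with 95% intervals on jointly scaled reads. S1pr3 has the highest point in both genotypes, 0.75 and 1.66, and its interval leaves out 0 in Cort-/- only.

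The difference between these responses was tested by the interaction of genotype and environment. Limma called 0 of the 10 genes and 3 of 27321 genes (0.011%), limma-voom called 0% of all genes, and 0 of the 10 had an unadjusted p under 0.05, against 2.85% (1.69% with a positive and 1.17% with a negative term). S1pr3 had the largest interaction of the 10, 0.91 (SE 0.51, unadjusted p = 0.111), with a 95% interval from -0.26 to 2.08. The next were Sphk1 at 0.49 (SE 0.42) and S1pr2 at 0.35 (SE 0.33). A difference between the genotypes in their response to OGD-R was therefore not shown for any of the 10 genes.

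Around these 10 genes, 69 further genes of the pathway were read, of which 67 could be tested under NX/NG. Limma called 0 of them for genotype, and 5 were higher and 2 lower in Cort-/- at an unadjusted p under 0.05. These 7 of 67 are close to the background of 8.39% of all genes, so the values that follow are a description. The list of lipid phosphate phosphatases held 3 of these 7. They were Plpp1, Plpp2 and Plpp3, ectoenzymes that remove the phosphate from extracellular LPA and S1P. Plpp3, the member known to limit LPA signalling in vessels, was at 13.8 RPKM in both Cort-/- libraries and at 22.6, 23.8 and 20.5 RPKM in the Cort+/+ libraries. Its log2 fold change was -0.68 (SE 0.08, unadjusted p = 0.000271, adjusted p = 0.119). Plpp2 went the other way, at 52.0 and 53.8 RPKM in Cort-/- against 38.2, 40.5 and 43.0 RPKM (log2 fold change 0.38, SE 0.06, adjusted p = 0.247), as did the most abundant, Plpp1, at 148 and 152 RPKM against 102, 110 and 133 RPKM (log2 fold change 0.39, SE 0.12, adjusted p = 0.508).

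**Figure D5:**
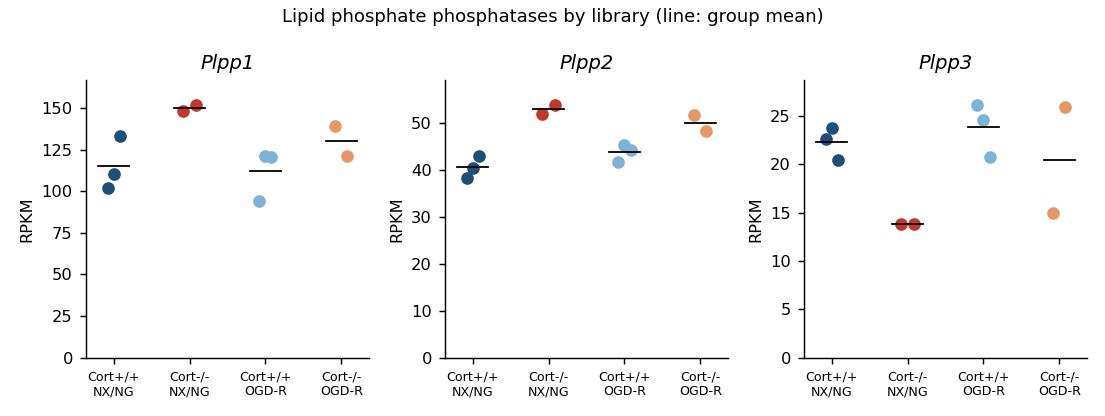
RPKM of Plpp1, Plpp2 and Plpp3 in each library by group, with black lines at the group means and axes from 0. Under NX/NG both Cort-/- libraries lie above the Cort+/+ libraries for Plpp1 and Plpp2 and below them for Plpp3, and the environments were scaled separately.

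The share of Plpp3 in the sum of these 3 phosphatases was 6.30% to 6.44% in Cort-/- and 10.4% to 13.9% in Cort+/+ libraries under NX/NG. After OGD-R it was 7.24% and 13.3% in the Cort-/- libraries, the higher value from replicate 3, low in ribosomal RNA, and 11.2% to 16.1% in Cort+/+ libraries. The other genes at an unadjusted p under 0.05 under NX/NG were Gnai1 (log2 fold change 0.49) and Gnaq (0.22), which encode G protein alpha subunits that these receptors use, the neutral ceramidase Asah2 (0.40) and the acid sphingomyelinase Smpd1 (-0.25). Rock2 followed (0.23, unadjusted p = 0.053). By list, the counts at that p were 2 of 29 genes of sphingosine and ceramide metabolism, 3 of 5 phosphatases, and 0 in the lists of other receptors, LPA synthesis, carriers and other exporters, and YAP and SRF target transcripts. The median log2 fold change was 0.03 over the 67 genes and -0.01 over all genes tested. Enpp2, the autotaxin that makes extracellular LPA, was at 1.98 and 1.48 RPKM in Cort-/- and at 2.36, 4.23 and 2.36 RPKM in Cort+/+ libraries.

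After OGD-R, 1 of 64 tested pathway genes had an unadjusted p under 0.05 for genotype, Asah2, again higher in Cort-/- (log2 fold change 0.41, SE 0.16, adjusted p = 0.978). This count is below the 3.42% of all genes at that p. The next by p were Plpp2 (0.19), the S1P phosphatase Sgpp1 (-0.35), Gnai3 (-0.18), the sphingomyelin synthase Sgms2 (0.31), Ankrd1 (0.25), Plpp1 (0.22) and the glucosylceramide synthase Ugcg (-0.33). Between environments in Cort+/+ BECs, 2 of 64 were lower after OGD-R at that p, Gna13 (log2 fold change -0.27, SE 0.07, adjusted p = 0.826), a G protein alpha subunit to which S1pr2 and Lpar4 couple, and the neutral sphingomyelinase Smpd3 (-0.57, SE 0.16, adjusted p = 0.881). None was higher, and the share is below the 5.48% of all genes in either direction and near the 2.48% that were lower. They were followed by Rock2 (-0.26), Asah2 (-0.26), the YAP target Ccn2 (0.30), the ceramide desaturases Degs2 (0.58) and Degs1 (-0.12) and Srf (0.12).

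In Cort-/- BECs 0 of 64 had an unadjusted p under 0.05, against 4.08% of all genes, and the lowest p were those of Ankrd1 (log2 fold change -0.30), Sgms2 (-0.31), Gnai3 (-0.18), Plpp1 (-0.29), Sgms1 (-0.29), Degs1 (-0.21), Gna13 (-0.21) and Plpp2 (-0.16). For the interaction 0 of 64 did, against 2.85% of all genes, and the lowest p were those of Plpp2 (-0.20), Gnai1 (-0.35), Plpp3 (0.41), Gnaq (-0.19), Degs2 (-0.70), the ceramide synthase Cers5 (-0.14), Gnai3 (-0.12) and Ugcg (-0.32). None of these pathway genes was called by limma in any comparison.

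The genes whose profile over the 10 libraries lay nearest to that of S1pr1, among 13789 genes averaging 1 RPKM or more, were Zfand2a, Dhx32 and Fads3. Their root mean square difference from S1pr1 in centred log2 RPKM on the joint scale was 0.0345, 0.0460 and 0.0575, where S1pr1 itself had an SD of 0.174. For Lpar6 (SD 0.235) they were Ccny, Cfl2 and Katnbl1, at 0.0565, 0.0616 and 0.0634. The libraries share their groups and depth, and the list is a description of likeness only.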

How the data were processed

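RNA-seq of primary BECs was analysed in 10 libraries, grouped by the genotype and environment in their labels. The authors deposited RPKM values in 2 tables, 1 for each environment and each scaled on its own, after processing with their reanalyzerGSE pipeline. The processing notes of the authors name edgeR for the deposited tables. The aligner, counter and build are not given in the sources used here. The tables also hold the authors' fold changes, p-values and FDR, and 10 columns of expression categories, which were not used. Reads were recovered from RPKM times length, with 99.9958% to 100% of values above 0 within 0.05 of a whole number, so a read test was run as an alternative.

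Fits used limma 3.58.1 (R 4.3.3) with a trend, after taking log2(RPKM + 0.1) of genes above 0 in any library compared. Unadjusted and adjusted p in the text come from these fits, and a Benjamini-Hochberg FDR no higher than 0.05 was a call. Fold changes are on this scale and understate those of low genes. Comparisons between environments and the interaction used the 27321 genes in both tables, with reads scaled by trimmed mean of M values. The fits were tested on simulated data. Replicates are pools of mice, and whether a pool was split between the environments is not given in the sources used here. The genes and lists were chosen with earlier results of these data known. Text names all 10 genes, and of the pathway lists up to 8 genes with the lowest p among those with a mean of 1 RPKM or more in each comparison, together with fixed genes by level. The count for 1 pathway list is not reported here. Alternatives were a pseudocount of 1, a filter at 1 RPKM in 2 or more libraries, quantile normalization, limma-voom, all groups in one fit, each replicate left out, a replicate block, and leaving out or modelling the libraries low in ribosomal RNA.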

Additional observations from a re-analysis of the deposited data

How the results depend on the processing

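No alternative called any of the 10 genes at an FDR of at most 0.05 in any of the 5 comparisons, the count being 0 throughout. Of 638 fold changes of single genes over all alternatives, 591 kept the sign of the value reported, and 31 of 50 pairs of gene and comparison kept it in every alternative, including all 10 genes for genotype under NX/NG. With a pseudocount of 1 the log2 fold changes of the scarce genes shrank, as that scale does for low values, from -1.02 to -0.41 for S1pr3 and from -0.93 to -0.37 for Sphk1 under NX/NG. Genes under 1 RPKM could not be tested in every alternative, and at 15 to 95 reads per library a small difference of S1pr3, Sphk1 or Lpar1 is within counting error.

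With the replicate number as a block, 0 of the 10 genes were called in the 4 comparisons where the block could be fitted, and 5 had an unadjusted p under 0.05 for genotype under NX/NG, against 6 without it. Deviations of same-numbered libraries from their group means correlated at -0.036 and -0.074 under NX/NG and at -0.51 and -0.33 under OGD-R. The deviations of 2 Cort-/- libraries mirror each other by construction, so these values cannot decide whether the numbers pair the samples. Between the Cort+/+ environments the correlations were -0.059, -0.061 and 0.19, within the -0.25 to 0.24 of differently numbered libraries. No paired analysis was possible for Cort-/- between environments because its libraries share 1 number.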
